A study of Homo sapiens with 24 samples.

Results

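The tight junction genes *CLDN1*, *CLDN2*, *CLDN3*, *CLDN4*, *CLDN7*, *CLDN12*, *CLDN15*, *OCLN*, *TJP1* and *F11R* were followed in 3 colorectal cancer (CRC) cell lines with and without *CTNNB1*, the gene of β-CATENIN. These 10 genes were taken by symbol from 58051 gene identifiers and comprise 7 claudins and 3 other junction genes. HT29 and SW480 carry mutated *APC*, whereas HCT116 carries a gain-of-function mutation of *CTNNB1* itself. Each line contributed 2 wild-type (WT) clones, which had gone through CRISPR/Cas9 treatment and cloning but kept the WT sequence, and 2 knock-out (KO) clones with both alleles of *CTNNB1* exon 7 deleted. HT29 is represented by WT clones 11 and 40 and KO clones 28 and 38, HCT116 by WT clones 4 and 6 and KO clones 44 and 47, and SW480 by WT clones 4 and 5 and KO clones 17 and 21. RNA of each clone was sequenced for a round A and a round B, which gave 4 libraries per line and genotype and 24 in all. All lines were grown in the same serum-containing medium. A clone descends from a single cell, and the paper describes clonal variability of HT29 and senescence of SW480 KO clones upon prolonged culture, so that differences between genotypes also contain differences between clones.

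Tight junctions seal the space between neighboring epithelial cells and decide which ions and molecules pass through it. Their strands consist of claudins, a family of proteins with 4 membrane-spanning segments, together with occludin (*OCLN*) and the immunoglobulin-like adhesion molecule JAM-A (*F11R*), and are tied to the actin cytoskeleton by scaffold proteins such as ZO-1 (*TJP1*). Claudin-1 and claudin-3 tighten the barrier, while claudin-2 and claudin-15 form pores for cations. *CLDN1* and *CLDN2* have been described as targets of β-CATENIN and TCF/LEF factors in intestinal cells, which makes loss of *CTNNB1* a natural setting to look at them.

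Values are normalized read counts, that is reads per gene divided by 1 size factor per library, and the libraries held between 22297049 and 29068378 recovered reads on genes. The targeted gene *CTNNB1* matched the labels in every library, with 5883 to 6113 in HT29 WT and 256 to 337 in HT29 KO. In HCT116 it ran from 10512 to 12800.1 and from 187 to 255, and SW480 had 43114 to 50939.5 in WT and 839 to 1312 in KO. Markers of colorectal epithelium were present in all lines, with 6 to 10 of 10 at a mean of 10 or more. In SW480, however, E-cadherin (*CDH1*) reached only 20.2 to 85.9 and the mesenchymal intermediate filament gene *VIM* 10674 to 29059, against 0 to 32.3 for *VIM* in the other lines. A gene counted as changed (DEG) at a limma adjusted p below 0.05 and an absolute log2 difference above 1, with differences taken on log2(normalized count + 1). The labels do not explain rounds A and B, but the paper describes 2 independent biological replicates for the clones. With 2 clones per line and genotype, p-values may in part measure spread between replicates of a clone. Libraries of the same clone are not independent clones, and results with the reads of a clone summed are given where they end a call. In bulk RNA, fewer cells expressing a gene and less RNA per cell cannot be told apart.

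Promoter stretches of 3 genes are shown because these genes passed the threshold between KO and WT in SW480 with WT levels clear of the floor. They are the 250 bases before the start of a RefSeq transcript (GRCh38.p14), written 5′ to 3′ along the gene. Capitals mark CTTTGA, the core of the TCF/LEF binding site, or CAGGTG, the E-box bound by SNAIL and ZEB repressors, on either strand.
CLDN4 (chr7:73830746-73830995, plus strand): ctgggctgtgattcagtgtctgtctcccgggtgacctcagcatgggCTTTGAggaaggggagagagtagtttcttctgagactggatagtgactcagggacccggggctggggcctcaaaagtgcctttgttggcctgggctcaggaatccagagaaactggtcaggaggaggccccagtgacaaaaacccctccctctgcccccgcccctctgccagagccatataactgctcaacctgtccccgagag
CLDN7 (chr17:7263214-7263463, minus strand): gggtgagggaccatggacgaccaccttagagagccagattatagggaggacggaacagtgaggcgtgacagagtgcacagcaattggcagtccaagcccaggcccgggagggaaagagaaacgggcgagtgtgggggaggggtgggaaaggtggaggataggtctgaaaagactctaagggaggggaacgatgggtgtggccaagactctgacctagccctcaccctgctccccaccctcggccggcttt
OCLN (chr5:69492297-69492546, plus strand): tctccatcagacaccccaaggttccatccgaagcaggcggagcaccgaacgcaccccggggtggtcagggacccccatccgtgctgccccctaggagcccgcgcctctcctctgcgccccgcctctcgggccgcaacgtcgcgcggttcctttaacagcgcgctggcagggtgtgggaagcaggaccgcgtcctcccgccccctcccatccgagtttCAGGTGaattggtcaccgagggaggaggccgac
Windows of 300 bases, from 250 before to 50 after a start, were found for 9 members, 15 windows in all. CTTTGA occurred in 2 of them, in *CLDN4* with its first base at position -204 from the start and in 1 of the *TJP1* windows at position -17. Among all 35116 RefSeq windows of this length 12.9% held CTTTGA. The longer forms CTTTGAT and CTTTGAA, which contain CTTTGA, occurred in none of the 15 member windows and in 2.62% and 4.43% of all windows. CAGGTG, added after the files had been seen, occurred in 5 member windows from 4 genes, against 20.6% of all windows. These 5 windows belonged to *CLDN3*, *CLDN7*, *OCLN* with both of its windows, and *TJP1*. The window of a second *CLDN7* start held 5 copies of CAGGTG, and the upstream stretch of the first start, shown above, held none. A match of letters is a description and not a binding site.

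First, WT levels were compared across the lines. HT29 expressed the largest amount of claudin mRNA, and the lines differed in which claudins they used. *CLDN2* and *CLDN3* were by far highest in HT29, although *CLDN3* was also expressed in the other lines. *CLDN1* was nearly missing from HCT116, and SW480 had very little *CLDN7* and *F11R*. *CLDN4* and *TJP1* were well expressed throughout. Levels of different genes were compared as normalized counts per kb of the canonical transcript.

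**Figure D1:**
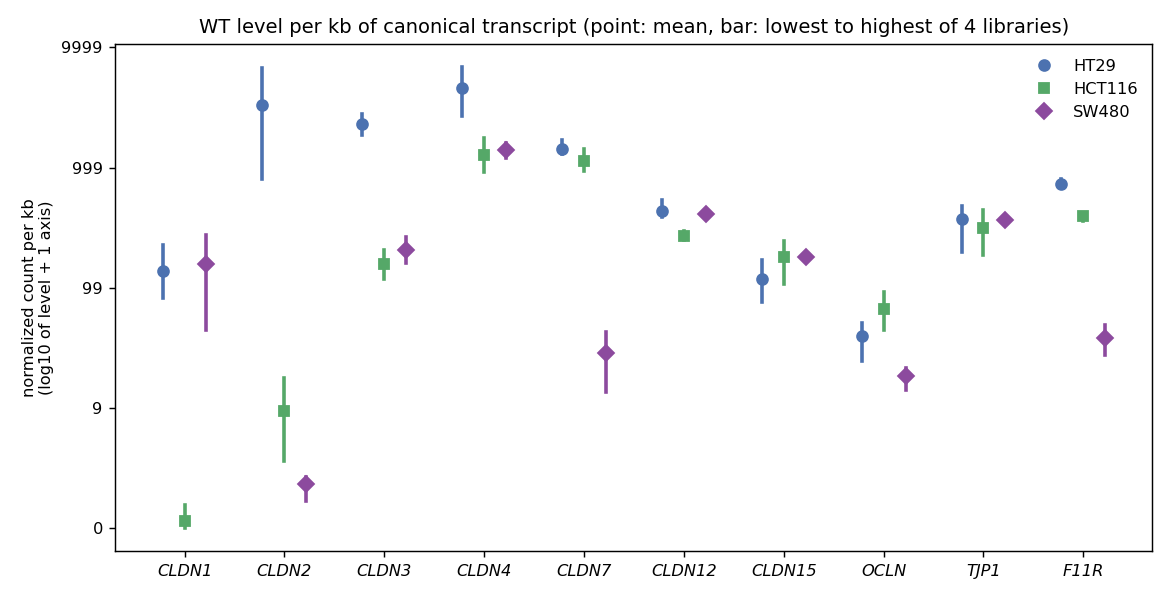
WT level of each gene in normalized counts per kb of canonical transcript, on a log10 axis of level + 1, for HT29, HCT116 and SW480. Points are means and bars run from the lowest to the highest of 4 libraries; *CLDN2* ran from 3311 per kb in HT29 to 1.30 in SW480, while *TJP1* lay between 313 and 369 in all lines.

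In HT29 WT the order per kb was *CLDN4* with 4602 ± 1764 (SD, n = 4), *CLDN2* with 3311 ± 2939, *CLDN3* with 2312 ± 506 and *CLDN7* with 1413 ± 181. It continued with *F11R* at 734, *CLDN12* at 436, *TJP1* at 369, *CLDN1* at 136, *CLDN15* at 117 and *OCLN* at 38.8. The libraries of *CLDN4*, *CLDN2* and *CLDN3* overlapped from one neighbor to the next, as did those of *CLDN12*, *TJP1*, *CLDN1* and *CLDN15*, whereas all other neighbors were separated. In HCT116 WT *CLDN4* with 1264 ± 369 and *CLDN7* with 1135 ± 200 overlapped at the top and were followed by *F11R* at 395. *OCLN* at 65.8, *CLDN2* at 8.44 and *CLDN1* at 0.135 closed the list, without overlap among these. In SW480 WT *CLDN4* with 1388 ± 200 stood clear of *CLDN12* at 406, which overlapped with *TJP1* at 368. *CLDN1*, *F11R*, *CLDN7* and *OCLN* overlapped from neighbor to neighbor between 158 and 17.4 per kb, and *CLDN2* was last at 1.30. Part of this order rests on transcript length. Per kb of merged exons, where the length of *CLDN4* is 4699 instead of 1695 bases, *CLDN2* led in HT29 with 2874 and *CLDN7* led in HCT116 with 703, while *CLDN4* remained first in SW480 with 500.5.

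Between HT29 and HCT116 WT cells, 4 of 10 members passed the threshold, all higher in HT29, against 37.3% of all genes tested. Between HT29 and SW480 6 of 10 passed, all higher in HT29, against 40.0%. Between HCT116 and SW480 5 of 10 passed, 4 of them higher in HCT116, against 39.9%, including *CLDN2*, whose call was lost in 10 alternatives. These comparisons share their WT groups with each other. The members' shares lay near or moderately above the background of each comparison.

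*CLDN3*, a barrier-forming claudin, had 2384, 3574, 2396 and 3430 normalized counts in HT29 WT (clone 11 rounds A and B, then clone 40 rounds A and B). HCT116 WT had 261, 150.3, 197 and 187, and SW480 WT 201, 219.6, 332 and 289.7. Every HT29 library was far above all others, and the log2 difference was 3.88 ± 0.29 (SE) against HCT116 and 3.5 ± 0.29 against SW480 (limma adjusted p = 7.80e-11 and 3.75e-10). *F11R*, the gene of JAM-A, ran from 3137 to 3719 in HT29 WT, from 1651 to 1925 in HCT116 WT and from 123 to 224 in SW480 WT, all 3 ranges apart from each other. The log2 difference from SW480 was 4.36 ± 0.18 for HT29 and 3.46 ± 0.18 for HCT116 (limma adjusted p = 1.09e-15 and 1.00e-13). *CLDN7*, whose protein also sits along the lateral membrane, ran from 2015 to 2594 in HT29 WT and from 1442 to 2179 in HCT116 WT, but from 19.2 to 64.7 in SW480 WT. Here the log2 differences from SW480 were 5.82 ± 0.30 and 5.49 ± 0.30 (limma adjusted p = 8.91e-14 and 3.64e-13), and HT29 and HCT116 overlapped. *CDH1*, the gene of the main epithelial adhesion protein, and *EPCAM*, whose protein binds claudin-7, were low in SW480 WT as well, with 20.2 to 85.9 and 1117 to 2110.1, against at least 1181 and 12103 in WT libraries of the other lines. Whether these levels are linked was not tested.

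*CLDN1* was at its floor of 3 reads in all 4 HCT116 WT libraries, with 2 reads in total, for which counting error allows 0.242 to 7.22 reads (95% exact Poisson interval). The mean of HT29 WT was 1012 times that of HCT116 WT (280.2 to 8357 by counting error), and the mean of SW480 WT 1170 times (324 to 9659). In the HCT116 KO group 11 reads were counted in total and 3 of 4 libraries were at the floor. *CLDN2* also lay far apart between HT29, with 2384 to 19824, and the other lines, with 7.62 to 49.2 in HCT116 WT and 2.02 to 4.89 in SW480 WT. The log2 difference of HT29 was 8.30 ± 0.76 against HCT116 and 10.44 ± 0.76 against SW480 (limma adjusted p = 3.45e-09 and 5.66e-11). At low counts *CLDN2* was also called higher in HCT116 WT than in SW480 WT, by 2.14 ± 0.76 (limma adjusted p = 0.0191). That call was lost in 10 alternatives, among them clones summed (2.25, adjusted p = 0.127), CPM (0.70, adjusted p = 0.356) and the fits without HCT116 WT clone 4 (1.17, adjusted p = 0.289) or SW480 WT clone 4 or 5. It was also lost without HCT116 WT 4A or 4B or SW480 WT 4A, with limma adjusted p from 0.0545 to 0.075. *OCLN* was lowest in SW480 WT, by 1.10 ± 0.30 against HT29 and by 1.87 ± 0.30 against HCT116 on the log2 scale (limma adjusted p = 0.00281 and 1.01e-05). The call against HT29 was lost without HT29 WT clone 40 (0.70, limma adjusted p = 0.095), and fell below the fold threshold on CPM (0.89) and without HT29 WT 40A or 40B or SW480 WT 5A (0.98, 0.96 and 0.97). *CLDN12*, *CLDN15* and *TJP1* passed the threshold in none of the 3 WT comparisons, the smallest limma adjusted p among them being 1.24e-05 for *CLDN12* between HT29 and HCT116, at a log2 difference of 0.69.

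Next, KO and WT cells were compared within each line. Loss of β-CATENIN went along with higher *CLDN4* in HCT116 and SW480, and with higher *CLDN7* and *CLDN2* and much lower *OCLN* in SW480. *CLDN1* was called higher in HT29 KO cells (1.54), a call that few alternatives kept. A similar difference of *CLDN1* in SW480 (1.56) did not pass. The KO effects on *CLDN1* in HT29 and SW480 were not told apart (difference -0.01 ± 0.76, limma adjusted p = 0.995). In HT29 1 of 10 tested members passed the threshold, against 2.30% of all genes. In HCT116 1 of 8 passed, against 5.06%, *CLDN1* and *CLDN2* being too low to be tested there. In SW480 4 of 10 passed, 3 higher and 1 lower in KO, against 17.5%, including *CLDN2*, which entered the test only through its KO libraries. By adjusted p alone the members numbered 1, 3 and 5, against 2.56%, 14.0% and 48.1% of all genes, so that for SW480 the share lay near the background. The KO libraries lay entirely above or below the WT libraries for 3 of 10 members in HT29, 4 of 8 in HCT116 and 6 of 10 in SW480, against 13.0%, 20.5% and 46.2% of all genes.

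**Figure D2:**
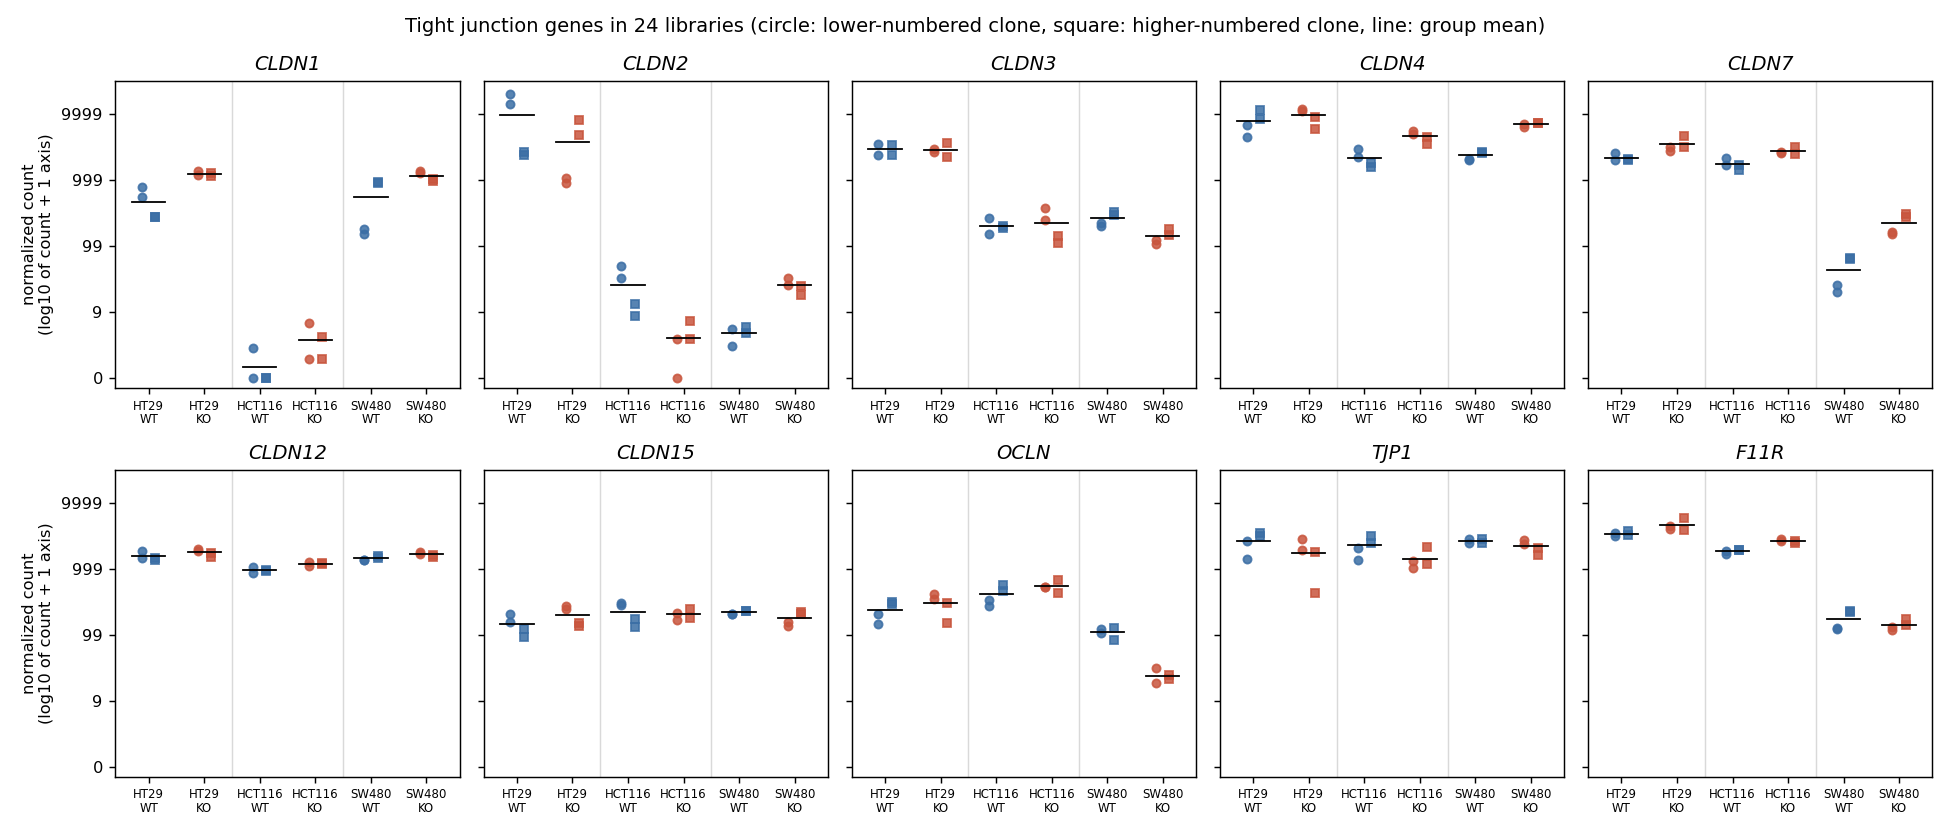
Normalized counts of the 10 genes in all 24 libraries, on a log10 axis of count + 1, with WT in blue and KO in red, circles for the lower-numbered and squares for the higher-numbered clone of each group, and black lines for group means. *CLDN4* in SW480 KO (6347 to 7376) and *OCLN* in SW480 KO (17.4 to 30.1) lie apart from their WT groups, while the clones of *CLDN2* in HT29 split within each genotype.

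*CLDN4*, a claudin of many simple epithelia, had the highest mean level per kb of canonical transcript of all members in all 6 groups. In SW480 WT it had 2082, 2041, 2589 and 2696 normalized counts (clone 4 A and B, clone 5 A and B), and in SW480 KO 6347, 7014, 7285 and 7376 (clone 17 A and B, clone 21 A and B). All KO libraries exceeded all WT libraries, and the log2 difference was 1.58 ± 0.10 (limma adjusted p = 7.44e-07). In HCT116 the WT values were 2976, 2249.7, 1792 and 1555 (clones 4 and 6) and the KO values 5495, 4988, 4549 and 3499.9 (clones 44 and 47). The KO group was again higher without overlap, by 1.14 ± 0.20 on the log2 scale (limma adjusted p = 0.00392). This call was lost with the reads of each clone summed (adjusted p = 0.0904), and without WT library 6B the difference fell just short of the fold threshold at 0.997 (limma adjusted p = 0.0109). It also fell short without WT clone 6 or KO clone 44, at 0.82 and 0.94 (limma adjusted p = 0.0414 and 0.0423). In HT29 the *CLDN4* values spanned 4510.0 to 11640.0 among WT libraries and 6028 to 12062 among KO libraries. These groups overlapped, and the log2 difference of 0.33 ± 0.32 did not pass (limma adjusted p = 0.63).

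*CLDN7* had 19.2, 24.8, 64.7 and 62.6 normalized counts in SW480 WT and 149.6, 161, 303 and 274 in SW480 KO. The KO libraries were all higher, by 2.47 ± 0.42 on the log2 scale (limma adjusted p = 8.57e-04), and remained below every library of the other lines. In HCT116, WT values of 1442 to 2179 stood against KO values of 2511 to 3174, a log2 difference of 0.65 ± 0.13 that passed the adjusted p but not the fold threshold (limma adjusted p = 0.00884). With the reads of each clone summed the limma adjusted p was 0.1005. In HT29 the values were 2015 to 2594 in WT and 2786 to 4693 in KO, also without overlap, with a log2 difference of 0.65 ± 0.19 and a limma adjusted p of 0.124. For *F11R* the KO libraries lay above the WT libraries in HT29 and HCT116. It ran from 1651 to 1925 in HCT116 WT and from 2448 to 2782 in HCT116 KO, a log2 difference of 0.53 ± 0.09 (limma adjusted p = 0.00407), and from 3137 to 3719 against 3848 to 5808 in HT29 (0.39 ± 0.16, limma adjusted p = 0.277). With the reads of each clone summed the limma adjusted p of *F11R* in HCT116 was 0.139. In SW480 the *F11R* groups overlapped, with 123 to 224 in WT and 118 to 173 in KO. The highest HT29 KO values of *CLDN7* and *F11R* came from library 38B, whose relation to transcript length is described further below. Without 38B their log2 differences in HT29 were 0.50 and 0.26 (limma adjusted p = 0.114 and 0.3035). With the length trend removed in each library they were 0.42 and 0.30 (limma adjusted p = 0.157 and 0.393).

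*OCLN*, the gene of occludin, moved down in SW480. It had 119, 106, 81.1 and 125 normalized counts in WT and 30.1, 17.4, 23.3 and 20.2 in KO. Every KO library was lower than every WT library, and the KO mean was 21.1% of the WT mean. The log2 difference of -2.20 ± 0.22 (limma adjusted p = 1.80e-05) kept its call in all 25 alternative settings. In HCT116 the values were 267 to 567 in WT and 435 to 674 in KO, and in HT29 146 to 311 and 149 to 416, both overlapping and not past the threshold. *CLDN3* in SW480 was also lower in all KO libraries, with 107 to 180 against 201 to 332 in WT, and its log2 difference of -0.89 ± 0.20 passed the adjusted p but not the fold threshold (limma adjusted p = 0.00424). With the reads of each clone summed its limma adjusted p was 0.0730. In HT29 and HCT116 the *CLDN3* groups overlapped, with log2 differences of -0.03 and 8.86e-05.

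*CLDN1* was counted as changed in HT29. It had 544, 778, 278 and 278 normalized counts in WT (clones 11 and 40) and 1184, 1358, 1162 and 1267 in KO (clones 28 and 38). All KO libraries were higher and the log2 difference was 1.54 ± 0.33, with a limma adjusted p of 0.0480 close to the threshold. The call was kept in only 5 of 25 alternatives and was lost when any single library other than WT 11B was left out, with adjusted p from 0.0810 to 0.135, and also with the reads of clones summed (adjusted p = 0.782). With the rounds as a block the adjusted p was 0.0820. In SW480 the values of *CLDN1* were 182, 151, 945 and 894 in WT (clones 4 and 5) and 1282, 1367, 963 and 1035 in KO (clones 17 and 21). Again every KO library exceeded every WT library, but WT clone 5 lay just below the KO clones and the log2 difference of 1.56 ± 0.61 did not pass (limma adjusted p = 0.0666). The call came up without WT library 5A (1.98) or 5B (1.95, limma adjusted p = 0.0233 and 0.0262). Without WT clone 5 the difference was 2.79 (limma adjusted p = 1.37e-05), and without WT clone 4 it was 0.32 (limma adjusted p = 0.14).

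*CLDN2* had 2.02, 4.59, 3.86 and 4.89 normalized counts in SW480 WT and 32, 24.8, 16.8 and 24 in SW480 KO, in total 16 and 104 reads. The log2 difference was 2.40 ± 0.33 (limma adjusted p = 1.67e-04). *CLDN2* was tested in SW480 only because its KO libraries passed the filter on low values, and even there the level stayed far below HT29. On CPM + 1, a scale that shrinks differences of low genes, it was 0.74 and no longer called. In HCT116, *CLDN2* went from 31.2, 49.2, 12 and 7.62 in WT to 2.95, 0, 6.42 and 2.85 in KO, with 3 of 4 KO libraries at or below 3 reads. Tests in which it could enter gave log2 differences of -2.66 with a filter of 1 read (limma adjusted p = 1.23e-05) and -2.73 with clones summed (adjusted p = 0.144). DESeq2 gave -3.06 (adjusted p = 0.00189) and the fit of all 24 libraries -2.66 (limma adjusted p = 0.0325). In HT29 *CLDN2* had 19824, 14350.4, 2384 and 2662 in WT and 1065, 897, 8037 and 4862 in KO. The log2 difference of -1.40 ± 0.92 did not pass (limma adjusted p = 0.477), and a high and a low clone occurred in both genotypes.

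The scaffold gene *TJP1* and the claudins *CLDN12* and *CLDN15* passed the threshold in no line, *TJP1* in HCT116 being called in 1 of 25 alternatives, without WT clone 4 (log2 difference -1.02, limma adjusted p = 0.0422). *TJP1* lay between 1414 and 3417 in HT29 WT and between 429 and 2814 in HT29 KO. In HCT116 WT it lay between 1334 and 3161 and in HCT116 KO between 1038 and 2129, and the SW480 ranges were 2446 to 2864 (WT) and 1611 to 2744 (KO). Its log2 differences were -0.83, -0.66 and -0.28. The lowest value of *TJP1*, 429, came from HT29 KO 38B, which had 149 for *OCLN* as well, while 38A had 1771 and 303.5. Library 38B stood apart in its relation to transcript length. Genes with less than 2500 bases of merged exons had a median log2 deviation of 0.71 from the mean of the HT29 libraries in 38B, and genes with more than 8000 bases one of -0.38, whereas the other 23 libraries lay between -0.19 and 0.16 for both classes. The merged exons of *TJP1* and *OCLN* span 11315 and 11259 bases. Without 38B the log2 differences in HT29 were -0.25 for *TJP1* and 0.61 for *OCLN*, neither past the threshold (limma adjusted p = 0.726 and 0.323). With the trend on transcript length removed in each library, an alternative chosen after seeing the data, they were -0.79 and 0.34 (limma adjusted p = 0.376 and 0.553), against -0.83 and 0.31 as first computed. The *CLDN12* values spanned 1378 to 1962 in HT29 libraries, 871 to 1255 in those of HCT116 and 1347 to 1816 in those of SW480. *CLDN15*, a cation pore gene, spanned 90.9 to 297 over all libraries.

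The KO effects were then compared between lines in a model of all 24 libraries. Between HT29 and HCT116 the difference of the KO effects passed the threshold for 0 of 10 members (limma), with 1 member at an unadjusted p below 0.05, against 5.39% of all genes. DESeq2 and edgeR also called 0 members. Between HT29 and SW480 4 of 10 passed, against 12.3% of all genes, namely *CLDN2* with -3.80 ± 1.08, *CLDN4* with -1.25 ± 0.34, *CLDN7* with -1.81 ± 0.42 and *OCLN* with 2.51 ± 0.42 on the log2 scale (limma adjusted p = 0.0176, 0.0139, 0.00418 and 1.58e-04). Between HCT116 and SW480 3 of 10 passed, against 10.0%, namely *CLDN2* with -5.06 ± 1.08, *CLDN7* with -1.82 ± 0.42 and *OCLN* with 2.66 ± 0.42 (limma adjusted p = 0.00225, 0.00491 and 9.67e-05). Negative values mean that the KO effect was more positive in SW480. With the reads of each clone summed only *OCLN* was called in each of these comparisons with SW480, where its adjusted p reached at most 0.0286 and 0.0277 over all alternatives. The *CLDN2* value between HCT116 and SW480 rests on groups at or near the floor, with 12 reads in total in HCT116 KO and 16 in SW480 WT. The SW480 WT group also enters the *CLDN2* value between HT29 and SW480. On CPM both *CLDN2* calls were lost, at -2.21 between HT29 and SW480 and -1.49 between HCT116 and SW480 (limma adjusted p = 0.0929 and 0.3045).

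The makeup of the claudin mRNA pool is given as the share of each claudin in the summed level per kb of 24 claudin genes. In HT29 WT *CLDN4*, *CLDN2*, *CLDN3* and *CLDN7* made up 38.6%, 24.9%, 18.8% and 11.6%. In HCT116 WT *CLDN4* and *CLDN7* together dominated with 40.7% ± 3.5 (SD, n = 4) and 37.2% ± 2.3. In SW480 WT *CLDN4* had 40.8% ± 4.8, and next came *CLDN11*, a claudin of myelin and testis that is no member and was singled out after its values were seen, with 29.0% ± 10.5. Per kb of merged exons the order was the reverse, with 34.1% ± 12.5 for *CLDN11* and 27.1% ± 3.2 for *CLDN4*. The normalized counts of *CLDN11* spanned 1844 to 3641 in the SW480 WT libraries and 3112 to 3482 in those of SW480 KO. The 7 member claudins made up 98.1% to 99.7% of the pool in HT29 libraries, 97.6% to 99.1% in HCT116 and 59.2% to 81.8% in SW480.

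In KO cells *CLDN4* took 44.7% ± 11.5 of the HT29 pool, 51.8% ± 4.0 of the HCT116 pool and 61.9% ± 1.6 of the SW480 pool. In HCT116 and SW480 all KO libraries were above all WT libraries, with 47.3% to 56.2% against 37.2% to 44.6% and with 59.9% to 63.7% against 36.3% to 46.0%, whereas those of HT29 overlapped. Per kb of merged exons the share of *CLDN4* was lower, with 27.1% in SW480 WT and 46.5% in SW480 KO, but the groups were separated in the same way. The summed claudin level per kb went from between 2468 and 3937 in HCT116 WT to between 4367 and 5771 in KO, and from between 3236 and 3510 to between 6249 and 6892 in SW480. In HT29 it was 9500.0 to 14220.0 in WT and 11200.0 to 14070.0 in KO.

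Clones of the same genotype were compared with each other, because some members split by clone rather than by genotype. *CLDN2* in HT29 was the clearest case. WT clone 11 had a mean of 17087 normalized counts and WT clone 40 of 2523, a 6.77-fold difference, and KO clone 38 had 6449 and KO clone 28 had 981, a 6.57-fold difference. Their log2 differences were 2.74 ± 0.27 for clone 11 against 40 and -2.68 ± 0.27 for clone 28 against 38 (limma adjusted p = 8.53e-04 and 6.85e-04). Of the sum of squares of log2 *CLDN2* over the 8 HT29 libraries, 77.2% lay between clones of a genotype, 20.6% between genotypes and 2.18% between rounds.

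*CLDN1* differed 5.53-fold between SW480 WT clones 5 and 4 (919 and 166), a log2 difference of -2.47 ± 0.10 for clone 4 against 5 (limma adjusted p = 6.08e-10), but 1.33-fold between the KO clones. In HT29 WT it was 2.38-fold higher in clone 11 than in clone 40 (log2 difference 1.23 ± 0.22, limma adjusted p = 0.0130). *CLDN7* was lower in SW480 WT clone 4 as well, with -1.50 ± 0.21 (limma adjusted p = 1.82e-04), and *CLDN3* was higher in HCT116 KO clone 44 than in clone 47, with 1.29 ± 0.29 (limma adjusted p = 0.0238). In total the threshold was passed by 2 of 10 members between the HT29 WT clones, 1 of 10 between the HT29 KO clones, 0 of 8 and 1 of 8 between the HCT116 WT and KO clones, and 2 of 10 and 0 of 10 between the SW480 WT and KO clones (limma). Among all genes 7.58%, 12.5%, 1.44%, 3.28%, 1.97% and 4.61% passed. Where 0 passed, 4 members in HCT116 WT and 5 in SW480 KO had an unadjusted p below 0.05, and DESeq2 and edgeR called 0 there as well. Between the SW480 KO clones these 5 members, *CLDN1*, *CLDN3*, *CLDN7*, *CLDN15* and *TJP1*, all passed the adjusted p and missed only the fold threshold. By contrast, genotype took 96.9% of the sum of squares for *CLDN4*, 94.7% for *OCLN* and 92.2% for *CLDN2* in SW480, and 92.0% for *F11R* in HCT116. These were the highest genotype shares among the members and lines. The *CLDN2* share rests on WT libraries with 16 reads in total, and *CLDN2* entered the SW480 test only through its KO libraries, so it is no support for a genotype effect.

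Other genes around the junction were read from lists. Of 16 other claudins 4 could be tested in SW480, and 2 of them passed as higher in KO, *CLDN9* from 11.1 ± 2.3 to 53.4 ± 12.7 and *CLDN16* from 2.66 ± 2.57 to 16.2 ± 2.0 (limma adjusted p = 7.28e-05 and 0.00342), both named because they were so few, against 17.5% of all genes called. All 4 KO libraries of each were above 10, while *CLDN16* WT libraries reached at most 4.89 and *CLDN9* WT libraries 7.72 to 12.7, so that both entered the test through the KO group and their calls are no support for a change of the list. In HT29 and HCT116 0 of 3 and 0 of 2 passed (limma), with 1 and 0 at an unadjusted p below 0.05. Among 12 other membrane proteins of the tight junction 2 rose and 3 fell of 8 tested in SW480, against 17.5% of all genes called, and 0 of 8 and 0 of 10 passed in HT29 and HCT116 (limma), with 0 and 2 at an unadjusted p below 0.05. *CXADR*, the coxsackievirus and adenovirus receptor and a junction adhesion molecule, fell from 1039.8 ± 200.4 to 53.1 ± 24.7 (log2 difference -4.37, limma adjusted p = 2.02e-06), and *ILDR2*, an angulin, rose from 309.7 ± 12.9 to 876 ± 111 (1.49, limma adjusted p = 1.09e-06). The median log2 difference of this list in SW480 was 0.19, against -0.0042 for all genes.

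Of 32 scaffold and polarity genes 30 were tested in SW480, where 4 rose and 2 fell against 17.5% of all genes called, and 30 in HCT116, where 1 rose against 5.06%. These shares lay near or below the background. *PARD6B*, a subunit of the PAR polarity complex, went from 578 ± 4.3 to 1796 ± 152 in SW480 (log2 difference 1.63, limma adjusted p = 6.86e-08), and *ARHGEF2*, a junction-associated exchange factor for RHOA, from 2022 ± 237 to 6031 ± 619 (1.58, limma adjusted p = 7.91e-07). *PARD3B* fell by 1.18 (limma adjusted p = 0.0176). In HCT116 *PLEKHA7*, an adherens junction protein, rose from 101 ± 11.6 to 211 ± 39.1 (1.04, limma adjusted p = 0.00367). In HT29 0 of 29 passed (limma), with 4 at an unadjusted p below 0.05.

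Transcription factors known to act on epithelial genes numbered 20, of which 4 rose and 3 fell among 11 tested in SW480 and 3 rose and 1 fell among 16 in HCT116, against 17.5% and 5.06% of all genes. In HT29 0 of 13 passed (limma), with 4 at an unadjusted p below 0.05, against 2.30%. *SNAI2*, a repressor that binds E-boxes, rose in both HCT116 and SW480, from 12.7 ± 7.0 to 233 ± 148 and from 52.8 ± 27.0 to 1040.1 ± 229.5 (log2 differences 3.98 and 4.39, limma adjusted p = 6.84e-04 and 3.54e-06). In HCT116 the WT libraries had 22.0, 13.9, 9.24 and 5.71, so that *SNAI2* entered the test there only through its KO group. Its call in HCT116 is thus no support for a change of the list. The HCT116 KO libraries also split by clone, with 137 and 81.0 in clone 44 and 389 and 327 in clone 47. The epithelial ETS factor gene *ELF3* rose in the same lines, from 587 ± 147 to 3297 ± 662 and from 53.7 ± 3.4 to 614 ± 9.9 (2.50 and 3.49, limma adjusted p = 1.28e-05 and 3.58e-09). *EHF*, another ETS factor gene, fell in HCT116 from 1015 ± 358 to 4.39 ± 2.88 (-7.65, limma adjusted p = 5.77e-07), and entered that test only through its WT group. In SW480 the intestinal factor gene *CDX2* fell from 1097 ± 263 to 106 ± 55.8 (-3.49, limma adjusted p = 3.83e-05) and *GRHL1* from 212 ± 15.7 to 77.5 ± 19.0 (-1.47, limma adjusted p = 5.86e-05). Of the WNT feedback genes 3 of 5 tested fell in HT29, 2 of 7 in HCT116 and 8 of 8 in SW480, against 2.30%, 5.06% and 17.5% of all genes called in either direction. The mean of *AXIN2*, which takes part in β-CATENIN destruction, went from 675 to 78.8 in HT29, from 431 to 10.5 in HCT116 and from 11508 to 439.9 in SW480. In HT29, its KO libraries split by clone, with 15.1 and 22.5 in clone 28 and 158 and 119 in clone 38.

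Some markers of cell type also differed between KO and WT in SW480 and HCT116, in either direction, while others did not. The adjusted p was not passed by *CDH1*, *KRT8*, *KRT18* and *KRT19* in SW480, at log2 differences of -0.14, 0.097, -0.17 and 0.41 (limma adjusted p = 0.8222, 0.5075, 0.1936 and 0.09218). Nor was it passed by *KRT8*, *KRT18* and *KRT19* in HCT116, at 0.13, 0.17 and -0.22 (limma adjusted p = 0.4952, 0.384 and 0.5997). In SW480 *EPCAM* went from 1645 ± 462 to 818 ± 175 (log2 difference -0.99, limma adjusted p = 0.00388) and *VIM* from 11626 ± 976 to 26787 ± 1675 (1.21, limma adjusted p = 6.48e-07). Other genes of the mesenchymal list did not follow *VIM* alike, with *FN1* at 0.93, *COL1A1* and *PDGFRB* at -0.25 each and *COL1A2* going from 81.7 ± 37.7 to 0.465 ± 0.536 (limma adjusted p = 9.39e-05, 0.509, 0.647 and 1.95e-06). The summed level of 8 mesenchymal markers ran from 14137 to 17390.0 in SW480 WT and from 32757 to 36504 in KO, with 3 of 8 at or below 3 reads in every library of each group, and *VIM* made up most of that sum. *CDH1* rose in HCT116 from 1481 ± 215 to 3323 ± 382 (1.17, limma adjusted p = 1.97e-04), while of the same epithelial list *KRT20* went from 77.8 ± 19.2 to 0.484 ± 0.558 and *CDX2* and *EPCAM* had log2 differences of -0.47 and 0.46 (limma adjusted p = 3.5e-06, 0.0282 and 0.0063). In HT29 *KRT20*, a keratin of differentiated colonocytes, rose from 3669 ± 2192 to 16524 ± 4968 (2.34, limma adjusted p = 0.0361) and *KRT19* from 24065 ± 1541 to 71886 ± 19375 (1.54, limma adjusted p = 0.00537). *LGALS4* and *CDH17* of that list also passed there, *CDH17* entering only through its KO group. *EPCAM*, *CDH1*, *KRT8*, *KRT18* and *VIL1* did not pass in HT29, at 0.22, 0.47, 0.46, 0.25 and 1.56 (limma adjusted p = 0.748, 0.597, 0.281, 0.618 and 0.290). The part of the markers in the junction gene values was not tested.

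For the members called in at least 1 line, genes with the most similar pattern were sought among 13028 genes tested in all lines, by Pearson's r of log2(normalized count + 1) over the 24 libraries. The 24 points share lines and clones, and r is given as a description. *CLDN7* was most similar to *SERPINB5* (0.98), *PLEKHG6* (0.97) and *FANK1* (0.97), and *OCLN* to *PCGF3* (0.97), *MARVELD2* (0.95) and *ANKRD13B* (0.95). *MARVELD2*, which encodes tricellulin, a relative of occludin at tricellular contacts, had means of 202 and 188 in HT29 WT and KO, 311 and 266 in HCT116, and 55.8 and 26.2 in SW480, where it fell (log2 difference -1.08, limma adjusted p = 0.00172). *CLDN4* was closest to *DHRS3* (0.94), *PSME1* (0.93) and *NUCB1* (0.92). *DHRS3*, a retinaldehyde reductase gene, rose alongside *CLDN4* in means, from 156 to 1535 in HCT116 and from 275 to 2273 in SW480. Its mean also went from 1454 to 3028 in HT29, where the *CLDN4* difference did not pass. *CLDN1* was closest to *CD82* (0.97), *TRMT2B* (0.97) and *RIN2* (0.97), and *CLDN2* to *SBSPON* (0.95), *DHRS11* (0.94) and *CYP1B1* (0.94).

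In GRCh37, *CLDN3* (chromosome 7, 73183327 to 73184600) and *CLDN4* (chromosome 7, 73213872 to 73247020) lie near each other on opposite strands, and their KO differences had opposite signs in SW480. *CLDN1* (chromosome 3, 190023496 to 190040235) and *CLDN15* (chromosome 7, 100875373 to 100882101) overlap no other annotated gene, nor do *CLDN3* and *CLDN4*. *CLDN2* (chromosome X, 106143394 to 106174091) overlaps *MORC4* and *RIPPLY1* on the other strand, and *CLDN12* (chromosome 7, 90013035 to 90142716) overlaps *GTPBP10*, *CDK14* and *PTTG1IP2* on its own strand. *CLDN7* (chromosome 17, 7163222 to 7167302) overlaps *ELP5* on the other strand and a read-through gene that had 0 normalized counts in all libraries. *F11R* (chromosome 1, 160965001 to 160991133) overlaps a read-through gene with at most 10.6. *OCLN* (chromosome 5, 68788119 to 68853931) has an antisense transcript and a partial copy, *OCLNP1*, which had 27.4 to 61.6 in HT29 and at most 6.06 in SW480. *TJP1* (chromosome 15, 29991571 to 30261118) overlaps 3 noncoding genes, 2 of them on the other strand. The library kit does not mark strand, so reads of overlapping genes cannot be assigned by strand, and *CLDN2*, *CLDN7*, *CLDN12*, *OCLN*, *TJP1* and *F11R* are to that extent uncertain.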

How the data were processed

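Libraries were prepared by the authors with TruSeq RNA v2 chemistry from poly(A) RNA, and reads were aligned to GRCh37 with STAR 2.7.5b and counted per gene with featureCounts 2.0.1 (versions per the submitters' processing notes). The deposited values per library are signal, namely gene counts that the authors divided by 1 size factor per library with DESeq2. Tables of the authors' own fold changes and p-values were not used. Dividing each library by its smallest step returned whole reads for 100% of values within 0.05, from 22297049 to 29068378 reads per library. Groups were taken from the titles. The 10 members and the gene lists were chosen with earlier results of these data known.

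Genes with a normalized count of at least 10 in at least 4 libraries of a comparison were tested on log2(value + 1) with limma 3.58.1 (trend, robust, Benjamini-Hochberg adjustment over all genes tested) within a line, or over all 24 libraries for comparisons between lines. Adding the constant of 1 understates changes of low genes. The test was checked on simulated counts with independent libraries, no difference between clones, and changes placed only in genes above a minimum mean. That check therefore does not cover the spread between clones seen here or changes of genes with few reads. Intervals and the floor of 3 reads cover counting error only. Named genes were all members, CTNNB1, per list and line at most 2 rising and 2 falling genes past the threshold with a mean of at least 100, and the 3 genes most similar to a called member. Alternatives were DESeq2 1.42.0, edgeR 4.0.16 on recovered counts, other scalings, constants and filters, clones summed or as a random effect, each clone or library left out, and rounds as a replicate block. As a check of the round pairing, the difference of round A minus round B of each gene was correlated between clones of a line. The r ran from 0.18 to 0.37 in all 6 pairs of HCT116 clones, from -0.31 to 0.42 in HT29 and from -0.04 to 0.13 in SW480. A positive r in every pair of clones was thus seen in HCT116 only, while single pairs of HT29 reached higher values.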

Additional observations from a re-analysis of the deposited data

Results flagged for a closer look

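The KO effect differed between lines by a test of the difference itself (limma, 24 libraries) for *OCLN*, *CLDN4*, *CLDN2* and *CLDN7* between HT29 and SW480, with 2.51, -1.25, -3.8 and -1.81 on the log2 scale. Between HCT116 and SW480 it differed for *OCLN*, *CLDN2*, *CLDN7* and *F11R*, with 2.66, -5.06, -1.82 and 0.78, the last below the fold threshold. The *CLDN2* values rest in part on groups at or near the floor, and their calls were lost on CPM. With the reads of each clone summed only *OCLN* was called in these comparisons. Among 60 groups of 4 libraries, 2 held a library far from the others, namely *CLDN7* in HT29 WT with 2594 normalized counts in 11B, and *CLDN1* in HCT116 WT with 1.86 in 4B against 0 in the rest. Chance flags about 1 in 20 groups.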

How the results depend on the processing

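In HT29 the count of members past the threshold fell from 1 to 0 with edgeR (TMM or RLE), CPM, a constant of 0.1, the filter of 10 in every library, the round as a replicate block, reads of a clone summed, clone as a random effect, all 24 libraries in one fit, without WT clone 40, KO clone 28 or KO clone 38, and, chosen after seeing the data, with the length trend removed. Leaving out single libraries gave 0 to 1. In HCT116 the count of 1 became 2 with DESeq2, the filter of 1 read, all 24 libraries in one fit and without WT clone 4, 3 by adjusted p alone, and 0 with clones summed and without WT clone 6 or KO clone 44, and ran from 0 to 1 without single libraries. In SW480 the count of 4 stayed within 1.5 times under all alternatives. For WT levels, the filter of 10 in every library, which tests fewer genes, gave 2 instead of 4 (HT29 against HCT116) and 3 instead of 5 (HCT116 against SW480). For the KO effect between HT29 and HCT116, 1 instead of 0 passed without WT clone 11 or KO clone 28 of HT29. Clones summed gave 1 instead of 4 (HT29 against SW480) and 1 instead of 3 (HCT116 against SW480). Between clones, single libraries left out gave 1 to 2 for HT29 WT, 1 to 3 for HT29 KO and 0 to 1 for HCT116 KO, and CPM gave 1 instead of 2 for SW480 WT. The causes were not tested. The round block, a pairing that held over all pairs of clones in HCT116 only, changed no call other than *CLDN1* in HT29.

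Values that changed sign were all from comparisons that had not passed. *CLDN3* in HT29 was 0.070, 0.050 and 0.081 without WT 11B, WT 40B and KO 38A, in a range of -0.15 to 0.081 over single libraries left out. Without WT clone 11, *CLDN4* and *OCLN* in HT29 were -0.085 and -0.092, and *OCLN* was -0.11 without KO clone 28. *CLDN3* in HCT116 was -0.0018 with CPM, -0.0006 with a constant of 0.1, -0.030 with clones summed, -0.0099 with the length trend removed, -0.12, -0.021, -0.31 and -0.12 without WT 4B, WT 6B, KO 44A and KO 44B (range -0.31 to 0.28), and -0.025 and -0.65 without WT clone 6 and KO clone 44. *CLDN15* in HCT116 was 0.11, 0.079 and 0.019 without WT 4A, WT 4B and KO 44A (range -0.29 to 0.11), and 0.41 and 0.0022 without WT clone 4 and KO clone 44. *F11R* in SW480 was 0.16 without WT clone 5.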
